A study of Mus musculus with 5 samples.

Results

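The immediate early transcription factors followed here are Fos, Jun, Junb, Atf3, Egr2, Klf2, Klf6, Nr4a1, Ier2 and Btg2, in mouse macrophages exposed to bacterial lipopolysaccharide (LPS). Their probes are those whose single gene symbol in the platform annotation is one of these names. All 10 genes were measured, by 15 probes with a value on all arrays, among 8452 named genes in all. Jun had 3 such probes and Btg2 had 4, and the remaining 8 genes had 1 probe each.

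Macrophages were grown in vitro from bone marrow of C3H/HeJ mice in human CSF-1, which drives this lineage. C3H/HeJ mice carry a mutation in Tlr4, the signalling receptor for LPS, and are known for their weak response to it. All 5 groups share this background. One group was not exposed to LPS (0 h), and the other 4 were given Salmonella minnesota LPS, at 10 µg per ml, and taken after 0.5, 2, 7 or 21 h. Each was measured on 1 two-colour array against total RNA of whole C57BL6/J embryos of 17.5 days. The labels do not say how many mice or cultures went into a sample, or how pure the LPS was. With 1 array a group there are no replicates, so the times are compared by value and without a test.

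Immediate early genes are those that cells transcribe within minutes of a stimulus from factors already present, without new protein synthesis. Serum response factor with its ETS partners, CREB and NF-kB carry the signal from MAP kinases and Toll-like receptors to their promoters. Their transcripts are mostly short-lived, and many encode transcription factors that act on a later wave of genes. In macrophages LPS is a classical inducer of Fos, Jun, Egr and Nr4a genes.

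Values are log ratios as deposited. The base is stated nowhere; base 10 was assumed. The beta globin gene Hbb-b1, at -1.86 at 0 h, would differ 72.9-fold between embryo and macrophage on base 10 and 3.64-fold on base 2. Which RNA is the numerator is also unstated. Macrophage over embryo is likely: of 6 measured macrophage markers 4 were above 0 on each array, and 5 erythroid, 5 fetal liver and 7 muscle, cartilage and connective tissue genes were below 0 at 0 h. Neutrophil markers had medians between -0.11 and -0.03, and fibroblast markers between -0.22 and 0.03 over the 5 arrays. B and T cell markers, 2 of 5 measured, had medians of -0.19, 0.11 and -0.46 at 0, 0.5 and 2 h. The macrophage median was 0.85, 0.47 and 1.09 on these arrays, the fetal liver median -0.84, -0.56 and -1.06, and the muscle and connective tissue median -1.22, -1.45 and -1.65. The part of any of these in the members' differences was not tested. Every sign below rests on that direction. The median over all named genes was subtracted from each array. A gene was called higher or lower where it differed by 2-fold or more on base 10, which is 0.301 units.

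The promoters of these genes were searched for the short sequences that such signal-carrying factors read. Promoter windows were available for 9 of the 10 genes (RefSeq, GRCm38.p6), and the 250 bases before each annotated start were searched on both strands. The sequences of Fos, Junb and Egr2 are shown because these genes were higher on both early arrays than on the other 3 (below). Ier2 was so as well, but it is the gene without a promoter window and enters no motif count. The sequences of Klf2 and Btg2 are shown for motifs that Fos, Junb and Egr2 lack in the bases searched. Capitals mark TGACG, the core of the cAMP response element, in Fos, Junb and Egr2. They also mark TATAAA in Fos and the CArG box, the sequence read by serum response factor, in Egr2. In Klf2 they mark GCGGGGGCG, a sequence that EGR proteins read, and in Btg2 the full cAMP response element TGACGTCA, which contains TGACG. A reverse complement is in capitals as well. Fos and Junb are shown from 150 bases to 1 base before the start, at chr12:85473740-85473889 on the plus strand and chr8:84978749-84978898 on the minus strand. Egr2 is shown at the same distances from 2 of its 5 annotated starts, at chr10:67537719-67537868 and chr10:67537416-67537565 on the plus strand. Klf2 covers 100 bases from 250 bases before the start, at chr8:72318812-72318911 on the plus strand, and Btg2 100 bases from 200 bases before it, at chr1:134079256-134079355 on the minus strand.
Fos: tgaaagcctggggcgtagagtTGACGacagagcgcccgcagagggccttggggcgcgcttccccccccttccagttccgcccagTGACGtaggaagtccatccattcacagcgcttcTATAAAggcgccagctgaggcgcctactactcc
Junb: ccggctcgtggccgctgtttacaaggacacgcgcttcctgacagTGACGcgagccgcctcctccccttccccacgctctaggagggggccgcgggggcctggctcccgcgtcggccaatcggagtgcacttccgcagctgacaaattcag
Egr2, start A: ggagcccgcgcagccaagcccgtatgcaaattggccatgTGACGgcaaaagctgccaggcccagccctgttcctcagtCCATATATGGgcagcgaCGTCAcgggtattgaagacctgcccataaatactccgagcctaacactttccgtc
Egr2, start B: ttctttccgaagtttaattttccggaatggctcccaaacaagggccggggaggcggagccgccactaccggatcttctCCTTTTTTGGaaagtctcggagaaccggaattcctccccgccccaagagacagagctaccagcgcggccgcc
Klf2: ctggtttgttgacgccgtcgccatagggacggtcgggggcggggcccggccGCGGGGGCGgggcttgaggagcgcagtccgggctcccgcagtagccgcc
Btg2: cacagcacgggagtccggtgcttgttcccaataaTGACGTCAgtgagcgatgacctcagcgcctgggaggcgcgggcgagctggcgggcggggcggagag

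Members are counted here by gene, over 13 windows of which Egr2 has 5, and the share of all is by single window. The 2 are therefore not in the same unit, and a gene with several windows has more places for a match. TGACG lay in the windows of 7 of the 9 genes, and in 17.8% of all 32851 windows. A CArG box lay in the windows of Egr2 alone among the 9, and in 1.47% of all windows. Bases farther than 250 from a start were not searched, so a motif not found here may lie beyond them. TGACGTCA was found for Btg2 alone (1.55% of all windows) and TATAAA for Fos alone (12.4%). GCGGGGGCG was found for Klf2 and Nr4a1 (2.57%), and in Klf2 it overlaps one of the GGGCGG matches. GGGCGG, the core of SP1 sites, was found for 8 of the 9 (32.7%). TGANTCA, the sequence of AP-1, was found for none (6.75%). These matches describe letters in these windows and say nothing of binding on these arrays.

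**Figure D1:**
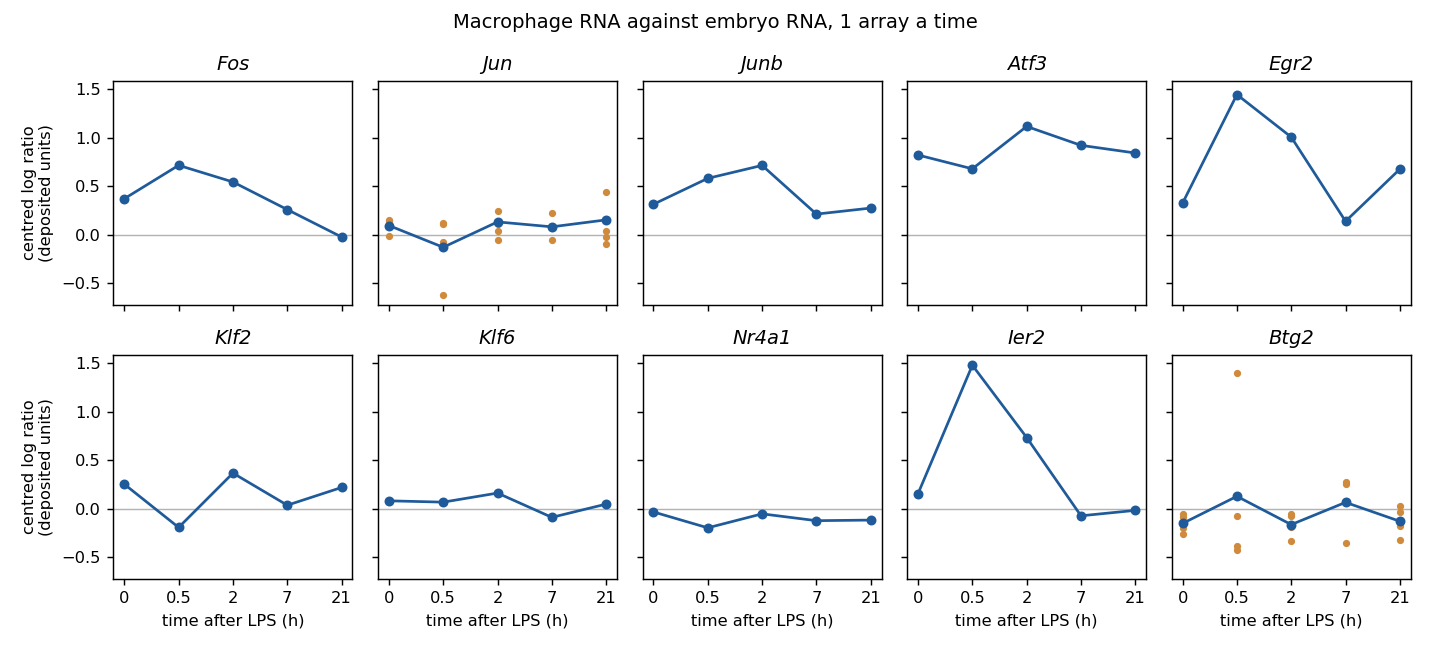
Centred log ratio of macrophage over embryo RNA (y axis, deposited log units) on the 5 arrays (x axis, time after LPS in h, evenly spaced) for each gene. Blue points are the gene's value, the mean of its probes, joined by lines, and orange points are the single probes of Jun and Btg2; there are no replicates. Ier2 and Egr2 peak at 0.5 h near 1.48 and 1.45, Junb and Atf3 peak at 2 h, and Nr4a1 is below 0 throughout.

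Ier2 and Egr2 stood out from the other members early after LPS, and each was nearer its starting ratio by 7 h. Ier2, a nuclear regulator of the immediate early class, read 0.15, 1.48, 0.73, -0.07 and -0.02 on the 0, 0.5, 2, 7 and 21 h arrays. The 0.5 and 2 h arrays were high and the last 2 were both below the unexposed array. Ier2 was therefore higher by 1.33 at 0.5 h and by 0.58 at 2 h. Read as base 10 these are 21.2-fold and 3.80-fold, and read as base 2 they are 2.51-fold and 1.49-fold.

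Egr2, a zinc finger transcription factor of the EGR family, read 0.32, 1.45, 1.01, 0.14 and 0.68 at 0, 0.5, 2, 7 and 21 h. It differed from Ier2 in being high again on the last array. Egr2 was higher than at 0 h by 1.12 at 0.5 h (13.2-fold on base 10, 2.17-fold on base 2), by 0.68 at 2 h (4.80-fold and 1.60-fold) and by 0.35 at 21 h. Its 7 h difference was -0.19. With a loess trend on the mean ratio removed, the 0.5 h difference of Egr2 changed sign, to -0.23, and that of Ier2 was 0.10.

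Among the AP-1 subunits, which dimerise to bind DNA, Fos and Junb were also higher on both early arrays than on the others, by less. Fos read 0.37, 0.71, 0.54, 0.26 and -0.03 at 0, 0.5, 2, 7 and 21 h, so that its early arrays were high and its last array was the lowest. It was higher than at 0 h by 0.34 at 0.5 h and lower by 0.40 at 21 h (-0.40), each past 2-fold on base 10. The 0.5 h difference of Fos changed sign after quantile normalization (-0.0276) and with a loess trend removed (-0.36). It was short of 2-fold with arrays scaled to one median absolute deviation (0.0626) and with a running median over probe numbers removed (0.28). Thus 5 of 9 alternatives kept the call. Among these 5, the median probe, the probe of highest mean ratio and the filter without the 0.5 h array could not move it, since Fos has 1 probe. No centring (0.39) and the mean of the other 4 arrays as baseline (0.43) could, and kept it. The difference of Fos at 21 h stayed between -0.74 and -0.39 in 10 alternatives, of which the 2 choices of probe could not move it. Junb read 0.31, 0.58, 0.71, 0.21 and 0.27. Its peak was at 2 h, higher than at 0 h by 0.40 (2.52-fold on base 10, 1.32-fold on base 2). The 0.5 h difference of 0.27 was short of 2-fold. That difference changed sign after quantile normalization (-0.0232) and with a loess trend removed (-0.25), and was 0.0361 at one median absolute deviation. At 2 h Junb was past 2-fold in 8 of 10 alternatives, and at 0.28 with the loess trend removed and 0.13 against the 0.5 h array. These 8 include the median probe and the probe of highest mean ratio, which could not move a gene of 1 probe.

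Atf3, a stress-induced member of the ATF family that restrains inflammatory genes in macrophages, was above 0 on every array. It read 0.82, 0.68, 1.12, 0.92 and 0.84 at 0, 0.5, 2, 7 and 21 h. Its 2 h array was the highest, and the difference of 0.30 (1.97-fold on base 10) was just under the size used for a call. That difference was -0.0870 after quantile normalization, -0.0198 with a loess trend removed and 0.11 at one median absolute deviation. In the same settings and order the 0.5 h difference of Atf3 was -0.80, -1.24 and -0.49, each past 2-fold, beside -0.14 with the main processing. Jun, the main partner of Fos, read 0.09, -0.13, 0.13, 0.08 and 0.15 as the mean of 3 probes. Without the 0.5 h array the 5 values of Jun shrink to 4 that span 0.07, and 6.21% of all genes spanned as little or less. This is the span of a mean of 3 probes that differed. At 0, 2, 7 and 21 h they read -0.01, 0.11, -0.05 and -0.02, then 0.14, 0.24, 0.23 and 0.44, and 0.15, 0.04, 0.06 and 0.03. Of the 8452 genes 2968 had at least 2 probes, so most spans in the comparison were not of averaged probes.

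Klf2, a zinc finger factor that holds macrophages in a quiescent state, was the single member called lower at 0.5 h. It read 0.25, -0.19, 0.37, 0.03 and 0.22, low at 0.5 h and highest at 2 h. The difference at 0.5 h was -0.45 (2.80-fold on base 10). Klf6, a related factor that promotes inflammatory gene expression, read 0.08, 0.07, 0.16, -0.09 and 0.05. Nr4a1, the orphan nuclear receptor Nur77, read -0.04, -0.20, -0.05, -0.13 and -0.12, below 0 on all 5 arrays. Btg2, an antiproliferative coregulator, read -0.15, 0.13, -0.17, 0.06 and -0.13 as the mean of 4 probes. With the main processing, no difference of Klf6, Nr4a1, Jun or Btg2 from 0 h was as large as 2-fold at any time. With a running median over probe numbers removed, Nr4a1 at 0.5 h was at -0.31 and Btg2 at 0.36, both past 2-fold. Btg2 at 0.5 h was also past it with a loess trend removed (0.31). The probe of highest mean ratio gave 1.60 for Btg2 and -0.76 for Jun at 0.5 h.

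At 0.5 h, 3 of the 10 members were called higher (Ier2, Egr2 and Fos), beside 19.9% of all genes, and 1 lower (Klf2), beside 10.6%. The members' median difference was 0.13, and that of all genes was -0.01. The members' median was below 0 after quantile normalization (-0.0343), at one median absolute deviation (-0.00593), with the loess trend removed (-0.21) and with the median probe of each gene (-0.0220). At 2 h, 3 were called higher (Egr2, Ier2 and Junb), beside 4.24% of all genes, and none lower, beside 2.58%. The median was 0.14 against -0.01 for all genes, and 8 of 10 members were above their 0 h value, where 45.6% of all genes were. At 7 h no member was called in either direction, beside 3.35% of genes higher and 1.4% lower. The median was then -0.11 against 0.02, and 2 of 10 members were above 0 h (Atf3 and Btg2), where 58.1% of all genes were. At 21 h Egr2 was called higher, beside 4.33% of genes, and Fos lower, beside 4.69%, with a median of -0.03 against 0.00. On base 2, Egr2 and Ier2 at 0.5 h were the only members past 2-fold at any time. Of the 8452 genes, 1678 were called higher and 898 lower at 0.5 h, and 888 and 1058 with the loess trend removed. At 7 h, 283 were higher and 118 lower, against 298 and 292 after quantile normalization and 169 and 192 with the loess trend removed. All these differences share the 0 h array, so a deviation of that array enters each of them.

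**Figure D2:**
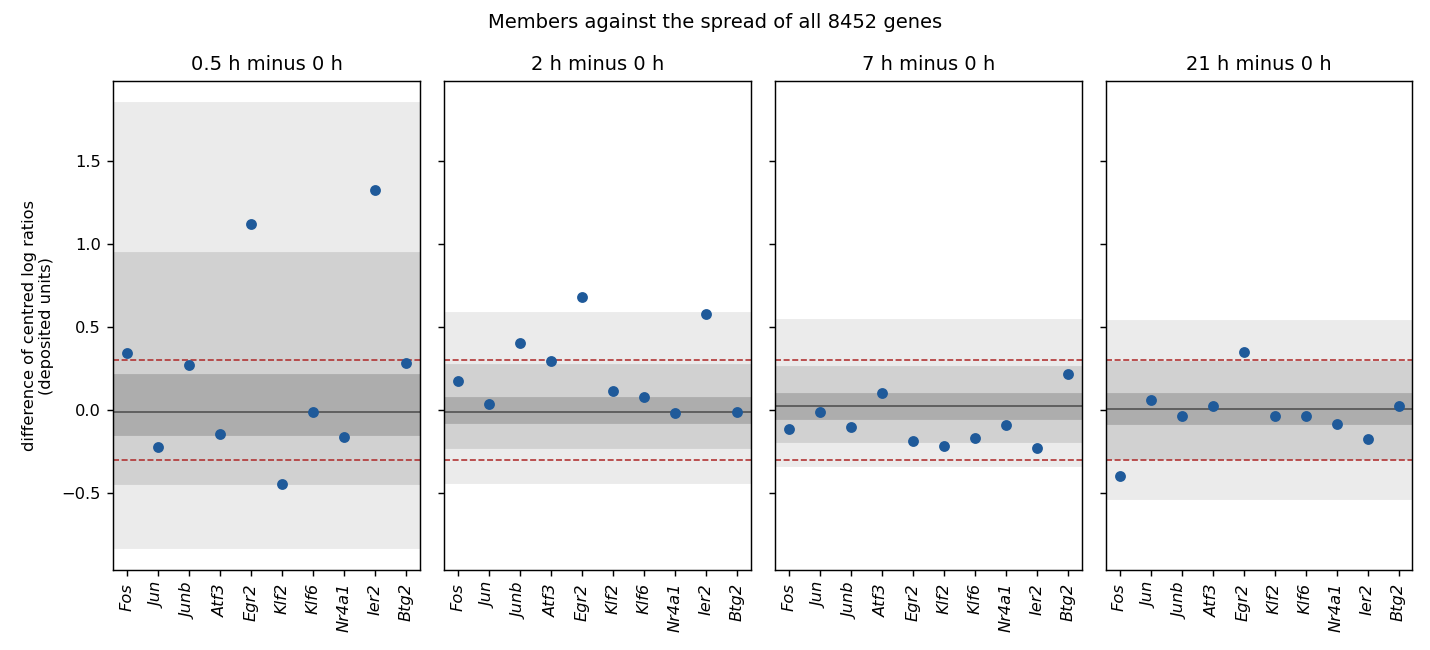
Difference of each member from the 0 h array (y axis, deposited log units) at 0.5, 2, 7 and 21 h, as blue points. Grey bands hold the central 50%, 90% and 98% of all 8452 genes, the grey line is their median, and the dashed red lines mark 2-fold on base 10. The bands are widest at 0.5 h, where Ier2 (1.33) and Egr2 (1.12) lie in the outermost band, while at 2 h Egr2 (0.68) lies above it and Ier2 (0.58) at its upper edge.

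Where several probes read 1 gene, they differed most at 0.5 h. Pooled over 2968 such genes, their SD for the difference from 0 h was 0.48, 0.16, 0.16 and 0.19 at 0.5, 2, 7 and 21 h. Between-probe spread is the single error these arrays give, and it holds no spread between cultures or hybridisations. The 0.34 of Fos at 0.5 h and the -0.45 of Klf2 were smaller than that SD, and Ier2 and Egr2 were larger. At 2 h Egr2, Ier2 and Junb exceeded it, as did Atf3, while Fos (0.17) was about the same size.

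The rank of a difference among all genes does not depend on the log base. At 2 h Egr2 ranked 59 from the highest of 8452, Ier2 88, Junb 198, Atf3 368 and Fos 854. At 0.5 h Ier2 ranked 212, Egr2 304, Fos 1523, Btg2 1775 and Junb 1828. At 7 h the low side held Ier2, Klf2, Egr2 and Klf6, at ranks 274, 313, 434 and 533 from the lowest, with sizes from -0.23 to -0.17 that are under 2-fold. At 21 h Fos ranked 206 from the lowest and Egr2 252 from the highest. Ier2, Egr2, Junb, Atf3 and Fos thus each ranked nearer the top at 2 h than at 0.5 h, although the values of Ier2, Egr2 and Fos were larger at 0.5 h.

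Comparisons without the unexposed array gave values for the same courses. From 2 to 7 h the difference (2 h minus 7 h) was 0.87 for Egr2, 0.81 for Ier2 and 0.50 for Junb, at percentiles 99.5, 99.4 and 98.2 of all genes. It was 0.33 for Klf2, 0.29 for Fos and 0.25 for Klf6, and -0.23 for Btg2. Between 2 and 21 h (2 h minus 21 h) Ier2 differed by 0.75, Fos by 0.57, Junb by 0.44 and Egr2 by 0.33. Between 21 and 7 h (21 h minus 7 h) Egr2 differed by 0.54, at percentile 98.6, and Fos by -0.28, at percentile 8.81.

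The order of the 5 arrays, chosen for this count after the values had been seen, separated 4 members. Fos, Junb, Egr2 and Ier2 each had both the 0.5 and 2 h arrays above all of 0, 7 and 21 h, beside 12.4% of all genes. The gap between the lower early array and the highest of the other 3 was 0.58 for Ier2, 0.33 for Egr2, 0.27 for Junb and 0.17 for Fos. No member had both early arrays below the other 3, beside 19.6% of genes. After quantile normalization, which gives every array the same distribution, Ier2 was the 1 member left, beside 11.5% of genes. This count was not made with a loess trend on the mean ratio removed. In that setting Egr2, Fos and Junb were lower at 0.5 h than at 0 h, by -0.23, -0.36 and -0.25.

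**Figure D3:**
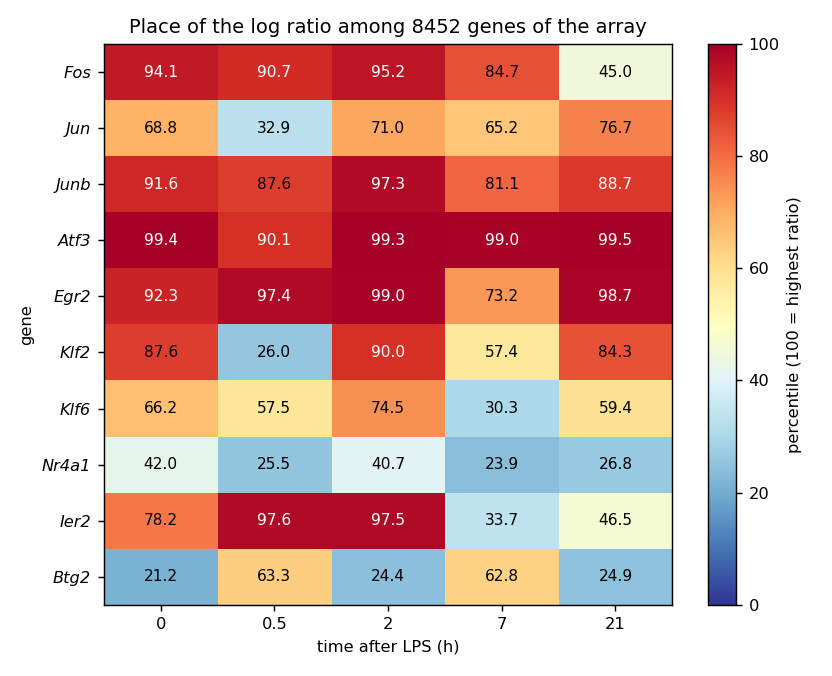
Percentile of each gene's log ratio among the 8452 genes of the same array (colour and number; 100 is the highest ratio of macrophage over embryo), by gene (y axis) and time after LPS in h (x axis). Ier2 goes from 78.2 at 0 h to 97.6 at 0.5 h and 97.5 at 2 h and is at 33.7 at 7 h, and Atf3 is at 90.1 or above on every array.

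The percentile of a ratio on its own array depends neither on the log base nor on how widely an array's ratios spread. The SD across probes was 0.58 on the 0.5 h array and 0.32 to 0.42 on the others. By percentile Ier2 moved from 78.2 at 0 h to 97.6 and 97.5 on the early arrays, and then to 33.7 and 46.5. Egr2 moved from 92.3 to 97.4 and 99.0, then to 73.2 and back to 98.7. Fos was at 94.1, 90.7 and 95.2 on the first 3 arrays, so that its place at 0.5 h was no higher than at 0 h, and it then went to 84.7 and 45.0. Junb behaved likewise, at 91.6, 87.6 and 97.3, with 2 h as its highest place. Klf2 was at 87.6 at 0 h, at 26.0 at 0.5 h and at 90.0 at 2 h. These are places of a ratio to embryo and not amounts of RNA, so they do not order the genes by expression in the macrophage. In RNA of a whole culture, fewer responding cells and less RNA per cell cannot be told apart.

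The 0.5 h array followed the 0 h array unevenly along the probe numbers. Over 400 neighbouring probes, the correlation of these 2 arrays ranged from -0.12 to 0.905, with a median of 0.53 (Pearson, across probes, which are not replicates). Over all 18039 complete probes it was 0.49, beside 0.88 for 2 h, 0.85 for 7 h and 0.77 for 21 h. Around the probes of Egr2, Nr4a1, Klf6, Fos, Ier2, Klf2, Junb and Atf3 it lay between 0.61 and 0.81. Whether the position on the array plays a part in any difference was not tested.

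**Figure D4:**
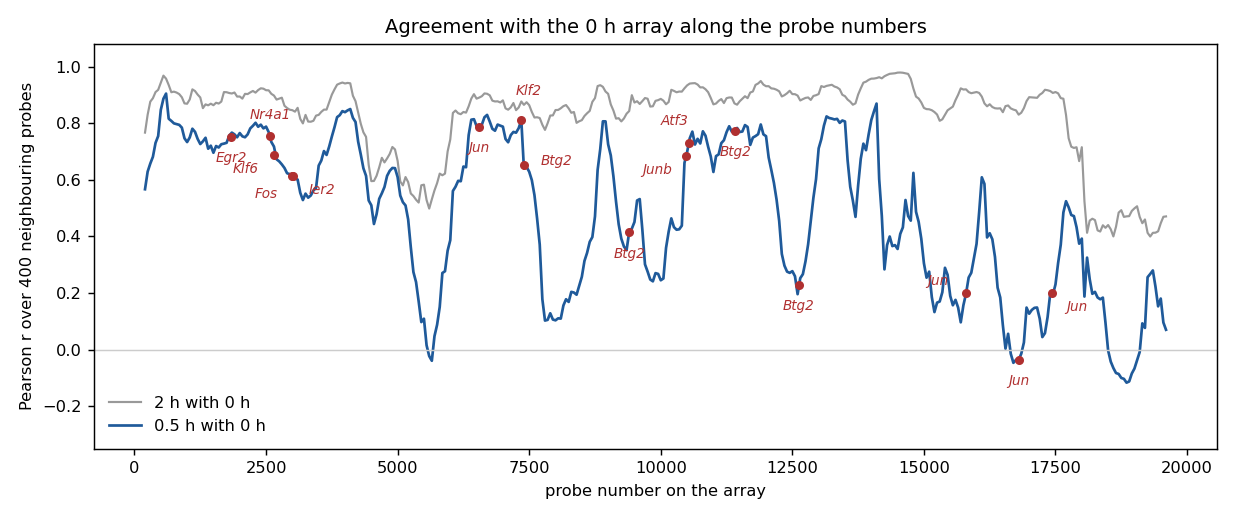
Pearson correlation of the 0.5 h array (blue) and of the 2 h array (grey) with the 0 h array over 400 neighbouring probes (y axis), along the probe number (x axis). Red points mark the members' probes. Single-probe members sit at 0.61 or higher on the blue line, while 3 Jun probes sit at 0.20 or below and 1 Btg2 probe at 0.23.

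Set against their own neighbours, some members stood differently from their place among all genes. Around Egr2, 24.7% of neighbouring probes were higher by 2-fold or more at 0.5 h, and Egr2 lay at percentile 94.8 of them. The probes of Ier2 and Fos are 22 numbers apart, and 20.2% and 20.3% of their neighbours were higher. Ier2 lay at percentile 95.6 there and Fos at 82.2. Junb came from a stretch where 1.27% of neighbours were higher, and its 0.27 lay at percentile 98.2. Around Klf2, 16.7% of neighbours were lower by 2-fold or more and none higher, and Klf2 lay at percentile 5.14. Nr4a1, at percentile 22.4 among all genes, lay at 5.93 among its neighbours, of which 26.4% were higher.

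At 2 h, 4.82% of neighbours were higher by 2-fold or more around Egr2 and 5.61% around Ier2, fewer than at 0.5 h, and 1.28% around Junb, as at 0.5 h. Egr2, Ier2 and Junb lay at percentiles 99.5, 98.7 and 99.5 of their neighbours, and Atf3 at 98.5. At 21 h 1 of 396 neighbours of Fos was lower than Fos itself, and 27 were higher by 2-fold or more. Around Egr2 at 21 h, 12.4% of neighbours were higher by 2-fold or more, and Egr2 lay at percentile 90.1.

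Jun and Btg2 were spotted several times, and their probes differed most at 0.5 h. The Jun probe in the stretch that followed the 0 h array (r = 0.79) read -0.01, 0.12, 0.11, -0.05 and -0.02 at 0, 0.5, 2, 7 and 21 h. Its difference of 0.13 at 0.5 h lay at percentile 94.6 of its neighbours. A second Jun probe (r = 0.20) read 0.14, -0.62, 0.24, 0.23 and 0.44, and another (r = -0.04) read 0.15, 0.11, 0.04, 0.06 and 0.03. A further one, left out of the mean because it had no value at 7 h, read 0.08, -0.08, -0.05 and -0.10 at 0, 0.5, 2 and 21 h. The mean difference of Jun at 0.5 h was -0.22 ± 0.47 (SD over 3 probes), a spread wider than the difference, and at 2 h 0.04 ± 0.13.

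The Btg2 difference of 0.28 ± 0.89 at 0.5 h (SD over 4 probes) rested on 1 probe. That probe was higher by 1.60, in a stretch with r = 0.23 where 26.0% of neighbours were higher by 2-fold or more. The other probes differed by 0.01, -0.12 and -0.37. At 7 h 3 of the 4 Btg2 probes were higher than at 0 h, by 0.48, 0.34 and 0.13, and the remaining probe was lower (-0.09), giving 0.22 ± 0.25. At 2 and 21 h the means were -0.01 ± 0.12 and 0.02 ± 0.14.

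**Figure D5:**
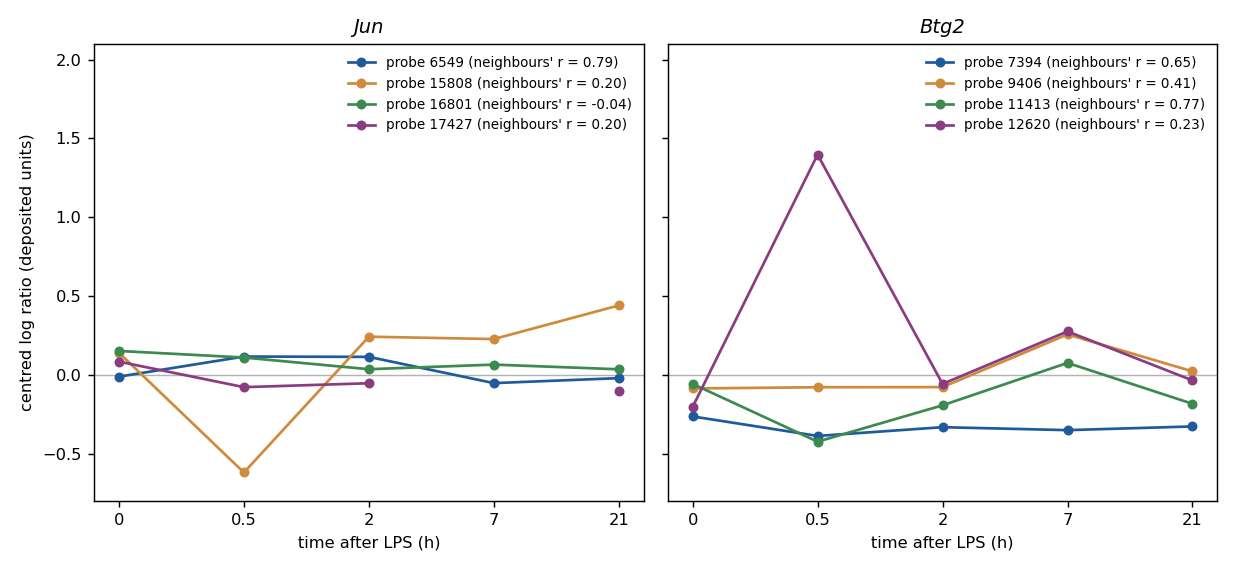
Centred log ratio (y axis, deposited log units) of every probe of Jun and Btg2 on the 5 arrays (x axis, time after LPS in h). The legend gives the probe number and the correlation of the 0.5 and 0 h arrays over its 400 neighbours; 1 Btg2 probe alone reads near 1.4 at 0.5 h and 1 Jun probe alone -0.62, while at 2 h the probes of each gene lie closer together.

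The wider AP-1 family had 13 measured genes of 21 listed, 9 of them outside the members. At 0.5 h 2 of these 9 were called higher, Mafk (1.06) and Fosl2 (0.46), and 1 lower, Mafg (-0.48). At 2 and 7 h none of the 9 was called, and at 21 h Atf7 (0.54) was higher. Jund, a constitutive AP-1 subunit, differed by -0.12 at 0.5 h and by 0.00 at 2 h. Of the 9 KLF genes outside the members, Klf16 was higher at 0.5 h (1.33). Klf11 read 0.35 at 0 h and 0.13, -0.02, -0.10 and -0.14 at the later times, and was called lower at 2, 7 and 21 h.

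No measured relative of Egr2, Nr4a1, Ier2 or Btg2 in the lists was called at any time. Egr2 and Nr4a1 were the single measured genes of their lists. Ier3 and Ier5, listed with Ier2, differed by 0.06 and -0.03 at 0.5 h and by 0.13 and -0.07 at 2 h. Among 5 measured BTG and TOB genes none was called at any time; Btg3 had the highest difference at 2 h (0.13) and Tob2 the lowest (-0.12).

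Of 22 further genes of the primary response that were measured, 3 were called higher and 2 lower at 0.5 h, beside 19.9% and 10.6% of all genes. At 2 h 1 was higher and none lower, beside 4.24% and 2.58%. At 7 h 2 were higher, beside 3.35%, and at 21 h 2, beside 4.33%, with none lower at either time. Nfkbie, an inhibitor of NF-kB, was higher at 0.5, 2 and 7 h (1.40, 0.56 and 1.12). The other calls at 0.5 h were Dusp4 (0.93), a phosphatase of MAP kinases, Gadd45a (0.58), Zfp36l1 (-0.76), which destabilises AU-rich transcripts, and Sgk1 (-0.59). Rgs2 (0.34) was also higher at 7 h, and Gadd45a (0.54) and Bhlhe40 (0.36) were higher at 21 h. Ptgs2, a classical LPS target, differed by -0.26 at 0.5 h and -0.16 at 2 h. The median of the 22 was -0.07 at 0.5 h and -0.02 at 2 h.

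Among 19 measured regulators upstream of these genes, Srf, the factor that reads the CArG box, was higher by 0.56 at 0.5 h and differed by 0.12 at 2 h. Crem (0.70, a relative of CREB) and Mapk8 (0.45) were also called higher at 0.5 h, and Map2k1 (-0.81) and Map2k2 (-0.45) lower. At 2 h Map3k8 (0.37), the kinase that links Toll-like receptors to ERK, and Tlr2 (0.36) were higher and Map2k2 (-0.42) lower. At 7 h Mapk8 (0.62) and Crem (0.43) were higher and Map2k2 (-0.41) lower. At 21 h Ly86 (0.64) was higher, and Map2k2 (-0.52) and Crem (-0.43) were lower. Over all 65 measured list genes outside the members, 9 were called higher and 5 lower at 0.5 h, and 3 higher and 2 lower at 2 h, with medians of -0.04 and 0.00. All genes gave 19.9% higher and 10.6% lower at 0.5 h and 4.24% and 2.58% at 2 h. Against these shares the counts of the lists show nothing particular to them.

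The genes whose 4 differences from 0 h were nearest to those of the called members, by Euclidean distance over the 4 times, each had 1 probe. For Ier2 these were Slc7a3, Zfyve19 and Arhgap15, at distances of 0.18, 0.24 and 0.25. Slc7a3, for example, differed by 1.37, 0.53, -0.13 and -0.04 at 0.5, 2, 7 and 21 h. For Egr2 they were Tmem82, Clasp1 and Disp1, at 0.28 to 0.33. For Junb they were Tnfrsf1b (0.08), which encodes a receptor of TNF, Prpf4 (0.12) and 1700003N22Rik (0.13). For Fos they were Dbr1, Mgrn1 and Xlr, at 0.16 to 0.18, and for Klf2 Mthfsd, Tdrd12 and 1810049I09Rik, at 0.08 to 0.10. All these distances share the 0 h array.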

How the data were processed

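cDNA from total RNA was labelled indirectly with Cy3 by amino-allyl chemistry, per the labels' descriptions, and hybridised on 5 two-colour arrays against embryo RNA. The table deposited by the authors holds log10 ratios, the base being assumed. How spots were scanned, corrected and normalized was not given in the sources used here; deposited medians ran from 0.00 at 7 h to 0.07 at 0.5 h. Values were missing for 1104 probes on the 0.5 h array, and for 180, 232, 257 and 154 on the 0, 2, 7 and 21 h arrays. Signal over background is unknown, and precision is limited by there being 1 array a time.

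The platform annotation names 1 gene for 14759 of the 19828 probes, several for 170 and none here for 4899. Of these symbols 14628 were matched through Entrez identifiers in RefSeq (GRCm38.p6), whose symbol was then used. Probes with a value on all 5 arrays were centred on the median over genes, probes of a gene were averaged, and each time was set against 0 h. No test was run, since each group held 1 array. Percentiles give the share of genes at or below a value; among neighbouring probes, the share below. Centring, joining of probes and differences were tested on simulated data with equal noise on all arrays and shifts in the 2 h array alone. The wider probe spread of the 0.5 h array was not covered.

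The members and gene lists were chosen with earlier results of these data known. Named by rule were all members, list genes past 2-fold (at most 5 a list, or the extremes where none passed), and the 3 nearest genes of each called member; genes named beyond that were chosen after their values were seen. Alternatives changed centring, normalization, scale, trend, position, joining of probes, missing values, baseline, size rule and base. The versions were statsmodels 0.14.6, matplotlib 3.10.9, pandas 2.3.3 and numpy 2.4.6, under Python 3.11.15.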

Additional observations from a re-analysis of the deposited data

How the results depend on the processing

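No paired analysis was possible because each group held 1 array and no result comes from a test. Counts of members called, and called members, changed as follows, with all other settings kept; the cause of each change was not tested. At 0.5 h, 3 members were higher and 1 lower; without centring 5 were higher, at a size rule of 1.5-fold 5 were higher and 2 lower, and on base 2 none was lower. With a loess trend on the mean ratio removed 1 was higher, Btg2 (0.31), and 3 lower, Atf3 (-1.24), Klf2 (-0.44) and Fos (-0.36). Egr2 (-0.23) and Ier2 (0.10) were then short of 2-fold. After quantile normalization 2 were lower, Atf3 (-0.80) and Klf2 (-0.45), and Fos was at -0.0276. Scaling to one median absolute deviation, a running median over 400 probe numbers and the probe of highest mean ratio each gave 2 lower. Klf2 was 1 of the 2 each time, and the other was Atf3 (-0.49), Nr4a1 (-0.31) and Jun (-0.76) in that order. At 2 h the 3 members higher became 0 on base 2. With the 0.5 h array as baseline 2 were lower, Egr2 at -0.44 and Ier2 at -0.75. At 7 h, where none was called, the median probe, the probe of highest mean ratio and 1.5-fold each gave 1 higher; 1.5-fold gave 3 lower, the mean of the other 4 arrays 2 and the 0.5 h baseline 4. At 21 h, base 2 gave 0 higher and 0 lower; the mean of the other 4 arrays gave 0 higher and 2 lower, and the 0.5 h baseline 4 lower, with Egr2 at -0.0525 and -0.77. The order of early arrays, a count added after seeing the data, held for 4 members and for 1 after quantile normalization. It was not counted with the loess trend removed, where Egr2, Fos and Junb (-0.25) were lower at 0.5 h than at 0 h. The members' median at 0.5 h, 0.13, ran from -0.21 to 0.17; those at 2, 7 and 21 h kept their sign. With values read as base 10 and the 2-fold rule, Fos at 21 h was past 2-fold in 10 of 10 alternatives, Klf2 at 0.5 h in 9 of 9 and Junb at 2 h in 8 of 10. Each of these genes has 1 probe, so the median probe and the probe of highest mean ratio could not change its value. The filter without the 0.5 h array could hardly do so (-0.39, -0.45 and 0.40 in that order). These settings therefore add nothing to the tallies. At 0.5 h the shares of all genes higher and lower were 21.9% and 8.74% without centring, 13.4% and 10.0% after quantile normalization, 15.9% and 8.03% at one median absolute deviation, 10.5% and 12.5% under loess, and 16.7% and 10.5% under the running median. Of the 8452 genes, 358 were called higher and 218 lower at 2 h, and 366 and 396 at 21 h. Base 2 left 384 and 50 at 0.5 h, 19 and 7 at 2 h, 12 and 5 at 7 h, and 3 and 8 at 21 h; 1.5-fold gave 2312 and 1775, 830 and 735, 905 and 509, and 1027 and 963. The 0.5 h baseline gave 823 and 1695 at 2 h, 1247 and 1630 at 7 h, and 1016 and 1784 at 21 h; the mean of the other arrays gave 262 and 401, 405 and 614, and 311 and 677. At 21 h quantile normalization gave 653 and 568, one median absolute deviation 560 and 543, and the running median 371 and 267. At 7 h one median absolute deviation gave 429 and 213, and the probe of highest ratio 440 and 159. Without the 0.5 h array in the filter, 539 and 231 of 8839 genes passed at 2 h and 315 and 194 at 7 h. With 1 array a time, a faulty spot and a response cannot be told apart.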
